A study of Mus musculus with 8 samples.

Results

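The 9 mouse aquaporin genes Aqp1 to Aqp8 and Aqp11, together with Avpr2, the gene of the vasopressin receptor of the collecting duct, were followed in messenger RNA from mouse kidney. They were taken by gene symbol from a deposited table of 49315 genes, and all 10 were found. The libraries came from 4 kidneys labelled Control, which the extraction protocol calls wild type, and 4 labelled Conditional Knockout of Kdm1a, the gene of the histone demethylase LSD1. Strain, age, sex, the recombinase driver and the cells it acts in are not given in the sources used here, nor whether each kidney came from a different animal, so p values measure the spread between these samples. The design compares gene expression between the kidneys labelled knockout and those labelled control.

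Aquaporins are channels that let water, and in some cases glycerol or anions, cross membranes. In the proximal tubule and the thin descending limb, Aqp1 carries most of the water that is reabsorbed without hormonal control. In the principal cells of the collecting duct, vasopressin binds its receptor on the blood side, cyclic AMP rises, protein kinase A is activated, and vesicles that hold Aqp2 fuse with the urinary membrane. Water then leaves the cell through Aqp3 and Aqp4 on the blood side.

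Levels are given as counts per 1000000 counts of the library after scaling (CPM), and changes as log2 fold changes, knockout minus control, from edgeR's quasi-likelihood test. A gene is termed called when its adjusted p (Benjamini-Hochberg, over all 18485 genes tested) is under 0.05. Total counts ran from 19524945 to 28544511 per library. The targeted gene, Kdm1a, lay at 110 to 120 CPM in controls and at 90.9 to 95.3 CPM in knockouts. It changed by −0.27 (SE 0.05, edgeR adjusted p 0.0194), and this call was lost in 5 of the 8 fits without a single library, those without control replicates 1 and 3 (adjusted p 0.0550 and 0.0675) and knockout replicates 1, 2 and 4 (0.0543, 0.0529 and 0.0765). Lrp2, the endocytic receptor of the proximal tubule, had 18.7 CPM or more in every library. It was itself called lower in the knockout, so this shows its presence and is a weak check of kidney identity. Six2, a transcription factor of nephron progenitors, stood at 96.9 to 219 CPM across all 8 libraries. Knockout replicate 3 had the highest mean level of proximal, principal and intercalated cell markers among the knockouts, and control replicate 2 the lowest among the controls, so results that rest on them are given with and without them. Y-linked transcripts were near 0 in control replicate 2 and knockout replicates 1 and 4. Adrenal transcripts were high in knockout replicate 1, where the 8 marker genes summed to 2562 CPM, and were raised in knockout replicate 4 and control replicate 4, at 304.5 and 139 CPM, against at most 16.0 CPM elsewhere.

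Of the 10 genes, 8 passed the filter on low counts, and 2 of these 8, Aqp1 and Aqp11, were called lower in the knockout. Over all genes tested 8.27% were called lower and 6.61% higher, and 0 of the 8 aquaporins were called higher. At an unadjusted p under 0.05 there were 4 of the 8, all lower, against 18.6% of all tested genes that were lower at that p and 35.1% in either direction. The median log2 fold change of the 8 was −1.23, against 0.00 over all tested genes, and 7 of the 8 values were below 0. In bulk tissue, fewer cells of a type and less RNA per cell cannot be told apart.

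Aqp2, Aqp1 and Aqp11 stand for the patterns described below, and the 250 bases before the RefSeq start of each (GRCm38.p6) are shown. They are examples, since Aqp3, Aqp4 and Aqp6 also lay below every control in knockout replicates 1, 2 and 4. The Aqp2 window is chr15:99578806-99579055 on the plus strand, the Aqp1 window chr6:55336049-55336298 on the plus strand and the Aqp11 window chr7:97738248-97738497 on the minus strand. Each is printed 5′ to 3′ along its gene. RefSeq and deposited starts differ for 2 of them. The Aqp11 window reaches into the deposited gene, which ends at 97738289, and the Aqp1 window stops short of the deposited start at 55336432. Capitals mark matches on either strand to GACGTCA, the core of the cyclic AMP response element, and to AGATAA, the word bound by factors such as Gata3.
Aqp2: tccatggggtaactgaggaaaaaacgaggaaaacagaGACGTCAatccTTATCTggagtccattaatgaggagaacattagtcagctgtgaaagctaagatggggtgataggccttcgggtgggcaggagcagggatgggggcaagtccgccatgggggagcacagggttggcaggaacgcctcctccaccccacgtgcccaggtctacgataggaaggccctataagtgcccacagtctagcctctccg
Aqp1: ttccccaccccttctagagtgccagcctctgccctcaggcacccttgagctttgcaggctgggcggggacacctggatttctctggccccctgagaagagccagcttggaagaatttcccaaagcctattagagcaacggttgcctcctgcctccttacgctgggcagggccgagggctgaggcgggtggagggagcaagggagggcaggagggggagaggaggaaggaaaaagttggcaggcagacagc
Aqp11: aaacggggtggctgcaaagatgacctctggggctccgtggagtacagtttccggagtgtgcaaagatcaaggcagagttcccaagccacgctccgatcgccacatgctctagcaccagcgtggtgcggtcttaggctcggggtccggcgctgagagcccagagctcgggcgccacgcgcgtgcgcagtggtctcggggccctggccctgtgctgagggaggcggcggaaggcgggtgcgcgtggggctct
In the Aqp2 window the core of the cyclic AMP response element began at position −213 relative to the start, and it contains the shorter word TGACG on the opposite strand, so these overlap. The Gata3 word, on the opposite strand, began at position −202. The core was present in 2.78% of 32817 windows of the same length, the shorter word in 17.7% and the word for Gata3 in 9.99%. Windows of the same length held TGGAAA, the core bound by the tonicity factor Nfat5, in 18.6% of cases, CCGGAAG, an ETS site, in 6.90%, and the full element TGACGTCA in 1.55%. The Aqp1 and Aqp11 windows held none of these 6 words. Among the other windows listed for the genes, 1 of the 2 of Aqp7 held AGATAA and TGGAAA, and those of Aqp3, Aqp5, Aqp6, Aqp8 and Avpr2 held none.

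Aqp1 fell in the knockout. The gene (ENSMUSG00000004655, chromosome 6, 55336432 to 55348555, plus strand) had 264, 89.4, 294 and 350 CPM in control replicates 1 to 4 and 37.1, 39.0, 125 and 48.7 CPM in knockout replicates 1 to 4. Knockout replicates 1, 2 and 4 lay below every control, while knockout replicate 3 lay above control replicate 2, so the groups overlapped. The means were 249 ± 112 CPM and 62.5 ± 42.1 CPM (SD, n = 4 each), and the log2 fold change was −1.99 (SE 0.50, edgeR adjusted p 0.0331), a level 3.98-fold lower.

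Aqp11, a channel of the endoplasmic reticulum whose loss gives cystic kidneys in mice, fell as well. The gene (ENSMUSG00000042797, chromosome 7, 97724006 to 97738289, minus strand) had 23.1, 13.5, 21.1 and 32.0 CPM in the controls and 8.87, 7.08, 12.0 and 9.24 CPM in the knockouts. All 4 knockouts lay below all 4 controls, which held for 1 of the 8 aquaporins tested and for 9.58% of all tested genes. The means were 22.4 ± 7.62 and 9.30 ± 2.04 CPM (SD, n = 4 each), with a log2 fold change of −1.27 (SE 0.26, edgeR adjusted p 0.0201).

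Both calls depended on single libraries. The edgeR adjusted p of Aqp1 was 0.00398 without control replicate 2 and 0.0144 without knockout replicate 3. It was 0.0821, 0.0894 and 0.0865 without control replicates 1, 3 and 4, and 0.0862, 0.0869 and 0.101 without knockout replicates 1, 2 and 4. For Aqp11 the call was kept without control replicates 2 and 4 (0.00156 and 0.0483) and without knockout replicate 3 (0.0190). It was lost without control replicates 1 and 3 (0.0582 and 0.0597) and without knockout replicates 1, 2 and 4 (0.0597, 0.0564 and 0.0715). With a covariate for adrenal transcripts the adjusted p was 0.0710 for Aqp1 and 0.0418 for Aqp11. With single libraries left out, the log2 fold changes stayed between −2.56 and −1.79 for Aqp1 and between −1.45 and −1.05 for Aqp11.

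The remaining channels placed in the proximal tubule were low in abundance. Aqp7, which passes glycerol as well as water and lies in the brush border of the straight segment (ENSMUSG00000028427, chromosome 4, 41033074 to 41048139, minus strand), had 3.32, 1.30, 2.58 and 5.95 CPM in controls and 1.27, 1.61, 1.94 and 0.899 CPM in knockouts. The groups overlapped, since control replicate 2 was below knockout replicates 2 and 3. Its log2 fold change of −1.20 (SE 0.44) was not called (edgeR adjusted p 0.0909, unadjusted p 0.0228). Without control replicate 2 it was called (−1.46, edgeR adjusted p 0.0125). Adipocytes also express Aqp7. Of the 6 adipose markers 3 were tested and 0 called, with log2 fold changes from −0.37 to 2.26. Adipoq ran from 0 to 0.464 CPM in controls and from 0.0845 to 1.15 CPM in knockouts. The 6 summed to 283 to 366 CPM in controls and 257 to 280 CPM in knockouts, mostly Fabp4 (log2 fold change −0.37, edgeR adjusted p 0.111). Relative to the control mean, the mean log2 CPM of these markers was −0.20, 0.24, −0.24 and 0.19 in controls 1 to 4. In knockouts 1 to 4 it was 0.55, 1.12, 0.06 and 0.18. Their part in the result was not tested.

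Aqp8, a channel found inside proximal tubule cells (ENSMUSG00000030762, chromosome 7, 123462291 to 123468004, plus strand), gave 6, 3, 7 and 5 counts in the controls and 3, 3, 2 and 3 in the knockouts. The knockout-to-control ratio of its level was 0.484, with a 95% exact interval for counting error of 0.211 to 1.05. Too few counts were present for the filter, and with no filter the edgeR adjusted p was 0.334. A change was not detectable at this depth.

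**Figure D1:**
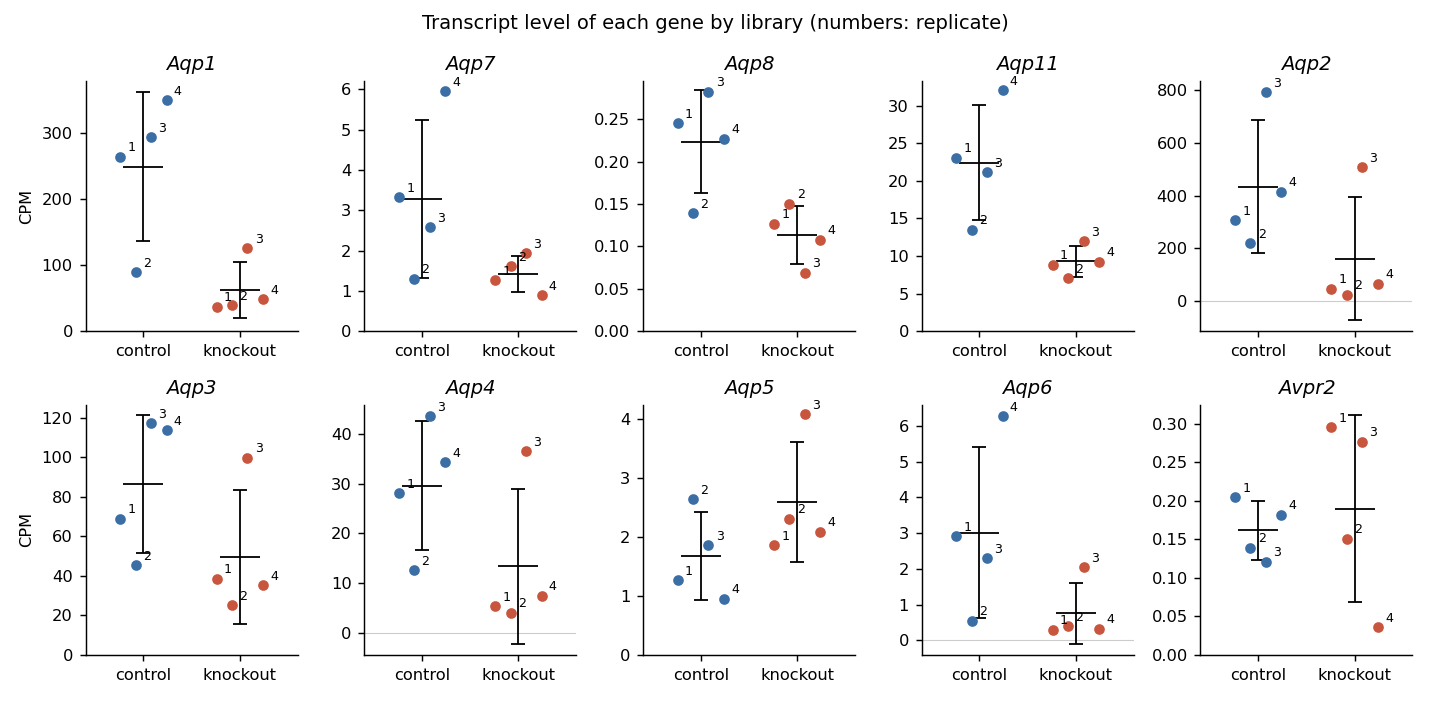
Level of each gene in CPM (vertical axes, linear, a separate scale for each gene) in the 4 controls (blue) and 4 knockouts (red); numbers give the replicate, the horizontal bar the mean and the whisker the SD. Aqp11 is the tested gene whose groups do not overlap, and for Aqp1, Aqp2, Aqp3, Aqp4 and Aqp6 knockout replicate 3 lies above the lowest control while the other 3 knockouts lie below every control.

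The water channels of principal cells were low in 3 knockouts and at control level in the other. Aqp2 (ENSMUSG00000023013, chromosome 15, 99579056 to 99584545, plus strand) had 305, 218, 792 and 415 CPM in the controls and 45.2, 22.3, 508 and 64.7 CPM in the knockouts. Knockout replicates 1, 2 and 4 lay below every control, and knockout replicate 3 was higher than 3 of the 4 controls. With all libraries the log2 fold change was −1.43 (SE 0.90) and was not called (edgeR adjusted p 0.278). Knockout replicates 1, 2 and 4 averaged 44.1 ± 21.2 CPM (SD, n = 3), and without knockout replicate 3 the log2 fold change was −3.27, which was called (edgeR adjusted p 0.0144).

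Aqp3, an aquaglyceroporin of the basolateral membrane (ENSMUSG00000028435, chromosome 4, 41092722 to 41098183, minus strand), had 68.9, 45.5, 117 and 113 CPM in controls against 38.4, 25.2, 99.7 and 35.3 CPM in knockouts. Its pattern was that of Aqp2 with a smaller range. The log2 fold change was −0.79 (SE 0.45, edgeR adjusted p 0.232), and −1.37 without knockout replicate 3 (edgeR adjusted p 0.0309). Aqp3 is also made by the urothelium. Of the 5 urothelial markers 0 were called. They summed to 45.2 to 218 CPM in controls and 53.1 to 149 CPM in knockouts, with the highest knockout value in replicate 3, and their part in the result was not tested.

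Aqp4, the other basolateral channel (ENSMUSG00000024411, chromosome 18, 15389394 to 15403684, minus strand), had 28.0, 12.6, 43.5 and 34.2 CPM in controls and 5.36, 4.07, 36.5 and 7.48 CPM in knockouts. Again knockout replicates 1, 2 and 4 lay below every control and replicate 3 did not. The log2 fold change of −1.14 (SE 0.68, edgeR adjusted p 0.258) became −2.36 without knockout replicate 3 (edgeR adjusted p 0.0153).

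Aqp6 resides in vesicles of intercalated cells and conducts anions. The gene (ENSMUSG00000043144, chromosome 15, 99601400 to 99605477, plus strand) had 2.91, 0.556, 2.30 and 6.27 CPM in controls and 0.296, 0.402, 2.04 and 0.324 CPM in knockouts. Knockout replicate 3 lay among the controls, whose own values spanned from 0.556 to 6.27 CPM. A difference of −1.93 on the log2 scale (SE 0.80) was not called (edgeR adjusted p 0.121, unadjusted p 0.0378). It was called without control replicate 2 (−2.27, edgeR adjusted p 0.0299) and without knockout replicate 3 (−3.11, edgeR adjusted p 0.0320).

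Aqp5, a water channel of salivary and other glands, was the tested aquaporin with a positive log2 fold change. The gene lies between Aqp2 and Aqp6 (ENSMUSG00000044217, chromosome 15, 99590849 to 99594829, plus strand) and had 1.27, 2.64, 1.86 and 0.954 CPM in controls and 1.86, 2.31, 4.08 and 2.09 CPM in knockouts. Knockout replicate 3 was above every control, and the other 3 knockouts lay within the control range. The value of 0.63 (SE 0.37) was not called (edgeR adjusted p 0.248), and its edgeR adjusted p was at least 0.0682 with any single library left out. Aqp2, Aqp5 and Aqp6 lie in that order on the plus strand, and their log2 fold changes did not share a sign.

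Avpr2 was close to the limit of detection. The gene (ENSMUSG00000031390, chromosome X, 73892102 to 73895502, plus strand) gave 5, 3, 3 and 4 counts in controls and 7, 3, 8 and 1 in knockouts. The knockout-to-control ratio of its level was 1.17, with a 95% exact interval for counting error of 0.564 to 2.48, so a change of that size was not detectable at this depth. With no filter its edgeR adjusted p was 0.875. In the deposited gene models, 2347 of the 2886 exon bases of Avpr2 overlap exons of Arhgap4 on the opposite strand. Whether strand was used in counting is not given in the sources used here. Without strand, reads there cannot be told apart, and the share of Avpr2 reads affected was not tested.

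**Figure D2:**
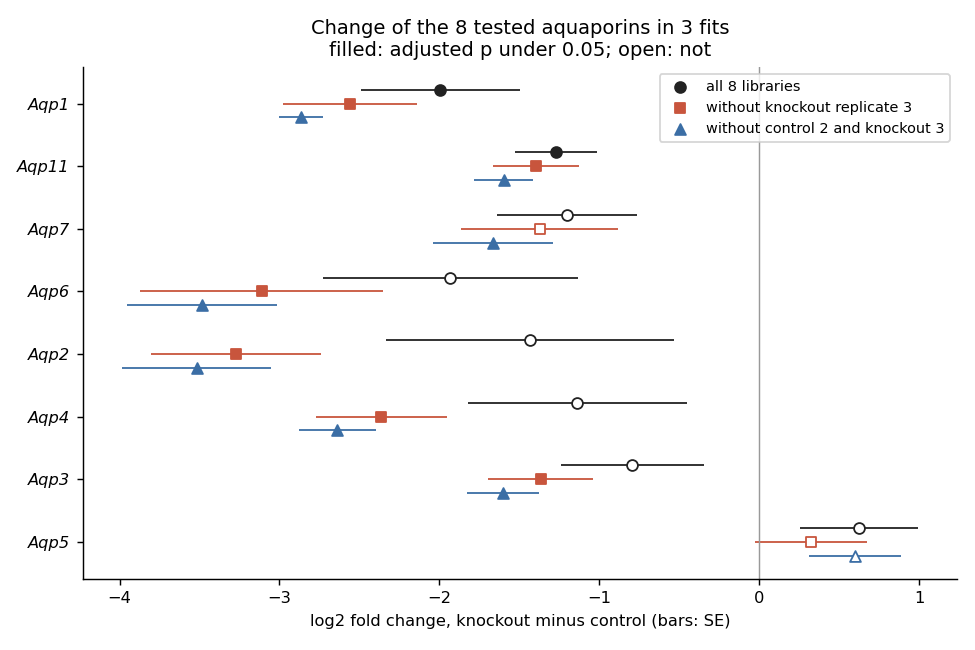
Log2 fold change (knockout minus control, horizontal axis, bars show SE) of the 8 tested aquaporins from edgeR with all 8 libraries (black circles), without knockout replicate 3 (red squares) and without control replicate 2 and knockout replicate 3 (blue triangles); filled symbols have an adjusted p under 0.05. With all libraries Aqp1 and Aqp11 are filled, and Aqp5 is open in all 3 fits. The libraries left out were picked by their marker levels, so their removal widens the differences by selection.

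The number of aquaporins called lower moved with the libraries in the fit. Without knockout replicate 3 it was 6 of 8, against 9.30% of all genes in that fit. Without both control replicate 2 and knockout replicate 3 it was 7 of 8, against 22.2% of all genes, and Aqp2 then had a log2 fold change of −3.52 (edgeR adjusted p 9.71e-04). Both libraries were picked by their marker levels, which ran with those of most aquaporins. Leaving them out thus widens the differences by selection, and these counts and p values are no separate support for a change. The limma-voom fit with sample weights called 7 of 8 with all libraries, against 22.9% of all genes. Aqp5 was not called lower in any of these 3 fits, and Aqp7 was not called without knockout replicate 3 alone (−1.37, edgeR adjusted p 0.0850). With libraries left out singly the count was 0 without control replicate 1, control replicate 3, knockout replicate 1, knockout replicate 2 or knockout replicate 4, where 1.28%, 0.928%, 1.12%, 1.47% and 0.23% of all genes were called lower. The count was 1 without control replicate 4, against 1.83% of all genes, and 4 without control replicate 2, against 19% of all genes. Among the 5 libraries with Y-linked transcripts, 3 controls and 2 knockouts, Aqp1 and Aqp11 were called lower, against 7.84% of all genes.

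Levels of different genes were compared per kilobase of the deposited gene length. In controls Aqp2 ranked first at 306 ± 178 CPM per kilobase (SD, n = 4), followed by Aqp1 at 94.9 ± 42.8 and Aqp3 at 47.2 ± 19.1. The lowest control of Aqp2, at 154 CPM per kilobase, was above the highest of Aqp1, at 133, whereas the ranges of Aqp1 and Aqp3 overlapped. Aqp4 followed at 5.82 ± 2.56 CPM per kilobase, below every value of Aqp3. Aqp11 (2.38 ± 0.810), Aqp6 (1.46 ± 1.16), Aqp7 (1.16 ± 0.694) and Aqp5 (1.01 ± 0.445) did not differ from their neighbours beyond their spread. Aqp8 (0.141 ± 0.0385) and Avpr2 (0.0560 ± 0.0133) were the lowest, and their ranges did not overlap with each other or with that of Aqp5.

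In the knockouts the means at the top stood in another order, with overlapping ranges. The mean level per length was 113 ± 164 CPM per kilobase for Aqp2, 27.1 ± 18.5 for Aqp3 and 23.8 ± 16.0 for Aqp1 (SD, n = 4 each). Aqp1 was above Aqp3 in 4 of 4 controls and in 1 of 4 knockouts. Lower down came Aqp4 at 2.63 ± 3.05 CPM per kilobase, Aqp5 at 1.55 ± 0.609, Aqp11 at 0.987 ± 0.216, Aqp7 at 0.505 ± 0.158 and Aqp6 at 0.372 ± 0.413. Of the summed level per length of the 10 genes, Aqp2 made up 59.0%, 70.2%, 74.6% and 58.1% in controls 1 to 4. In knockouts 1 to 4 its share was 45.0%, 32.7%, 75.7% and 52.0%. The level per length of Aqp2 was 5.72, 6.19, 8.73 and 4.73 times that of Aqp3 in the controls and 1.52, 1.15, 6.58 and 2.36 times in the knockouts. Within the principal cell channels the 2 genes were thus closest in knockouts 1, 2 and 4.

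The levels of the tubule channels ran together across the 8 libraries, as a description without a test. Pearson's r of log2 CPM was 0.98 between Aqp2 and Aqp4, 0.97 between Aqp3 and Aqp4, 0.95 between Aqp2 and Aqp3 and 0.96 between Aqp1 and Aqp11 (n = 8 libraries, which differ in genotype and tissue makeup). Between Aqp2 and Aqp7 it was 0.61, and Aqp5 had values from −0.65 to −0.10 with the other 7 tested aquaporins. Over 14202 other genes at a mean of at least 1 CPM, those most like Aqp2 were Foxi1, the transcription factor of intercalated cells, Spink8 and Dram1 (r = 0.98 each). Foxi1 had 16.0 CPM in knockout replicate 3 and 0.853 to 2.19 CPM in the other knockouts. Aqp3 was most like Cldn8, a claudin of the collecting duct, Agrn and Icosl (r = 0.99 each). Aqp1 was most like Ubxn1 (r = 0.995), Eif4h (r = 0.995) and Flvcr2 (r = 0.991), of which Flvcr2, with a log2 fold change of −1.10 (edgeR adjusted p 0.0289), had the largest change.

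The aquaporins other than Aqp5, and Avpr2, were then set against markers of a segment in which each is found, for Aqp1 the proximal tubule alone. For this the mean log2 CPM of the markers was subtracted from the log2 CPM of the gene in each library, and each difference was tested by exact permutation of the group labels (two-sided, 70 assignments, smallest possible p 0.0286). Of 9 such comparisons 0 had an adjusted p under 0.05. A gene at the smallest p passes only if most of the 9 share it, so the adjusted test could not decide for a single gene. Aqp7, Aqp8 and Aqp11 had the smallest exact permutation p the design allows. For Aqp8, at 2 to 7 counts per library, that p became 0.0857 with a prior count of 0.5. Aqp2 relative to 9 principal cell markers stood at 3.08, 3.10, 4.14 and 2.84 in controls and at 0.99, 0.38, 3.60 and 1.57 in knockouts on the log2 scale. Knockouts 1, 2 and 4 lay below all controls, but the mean difference of −1.66 did not pass the exact permutation test (p = 0.114, adjusted p 0.184). Aqp4 differed by −0.92 (exact permutation p = 0.143, adjusted p 0.184) and Aqp3 by −0.22 (exact permutation p = 0.314, adjusted p 0.354).

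Against the 10 proximal tubule markers the mean differences of Aqp1, Aqp7, Aqp8 and Aqp11 were positive. The adjusted test was passed by 0 of these 4, and these 4 alone could not have passed it. Aqp11 minus these markers was −1.37, −0.52, −0.87 and −1.27 in controls and 0.78, 1.98, 0.03 and 0.56 in knockouts, a difference of 1.85 with no overlap (exact permutation p = 0.0286, adjusted p 0.0857). Aqp7 differed by 2.06 with the same exact permutation p and adjusted p. The difference for Aqp1 was 1.05, with control replicate 3 (2.92) above knockout replicate 1 (2.84) and an exact permutation p of 0.0571 (adjusted p 0.129). Aqp1 is also made in the thin descending limb. Relative to the control mean, Aqp1 was at −2.58, −2.51, −0.82 and −2.19 in knockouts 1 to 4. The mean of the thin descending limb markers was at −1.25, −1.45, −0.22 and −1.33, so Aqp1 lay below that list. Aqp1 against that list was not tested. Aqp6 relative to intercalated cell markers differed by −0.15 (exact permutation p = 0.771), a value whose sign turned without control replicate 4 (0.06) or knockout replicate 1 (0.13). Aqp8 and Avpr2, at 8 counts or fewer per library, gave values of 2.44 and 0.72. With a prior count of 0.5 these were 2.25 and 0.64.

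**Figure D3:**
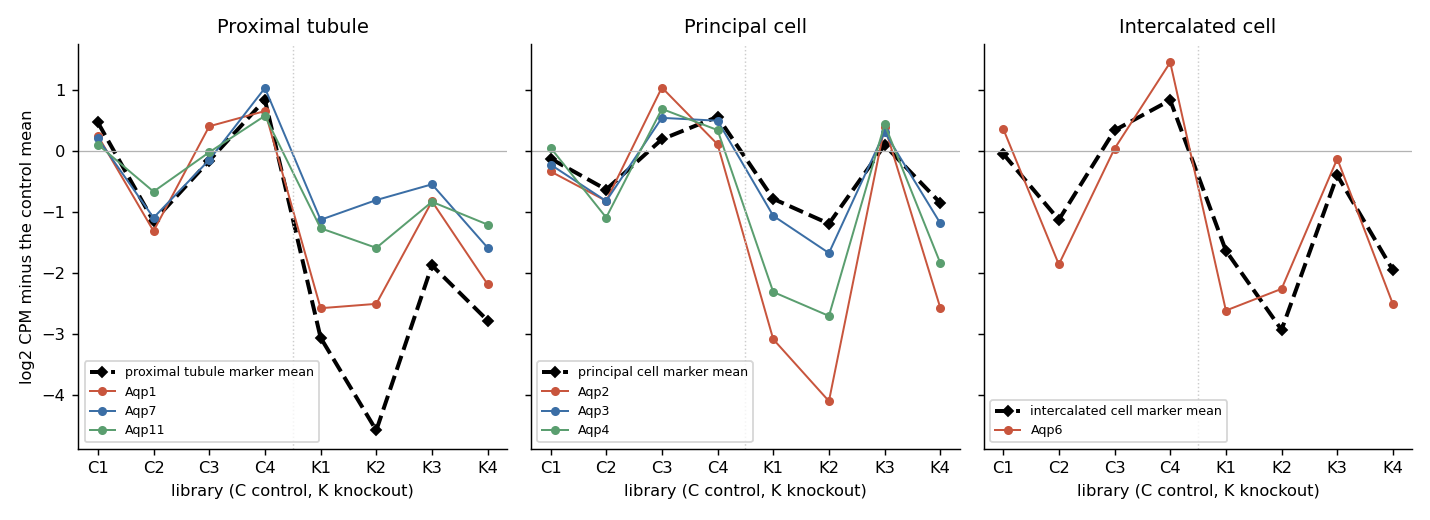
Log2 CPM minus the control mean (vertical axis) in controls (C1 to C4) and knockouts (K1 to K4) for channels of 3 cell types, with the mean of the markers of that cell type as a dashed line. In the principal cell panel K3 lies near the controls for every line, and Aqp2 lies below the marker mean in K1, K2 and K4; in the proximal tubule panel the channels lie above the marker mean in all 4 knockouts.

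The marker lists themselves moved as follows, beside 8.27% of all genes tested called lower and 6.61% called higher. All 10 proximal tubule markers were called lower, with a median log2 fold change of −2.92. Pck1, an enzyme of glucose synthesis, changed by −3.85 (edgeR adjusted p 0.00724), the organic anion transporter Slc22a6 by −4.51 (0.0164) and the endocytic receptor Cubn by −3.10 (0.0183). Of 5 thin descending limb markers 2 were called lower, Bst1 (−2.10, edgeR adjusted p 0.0200) and Cryab (−1.74, 0.0244). Of 9 principal cell markers 1 was called lower and 1 higher, with a median of −0.55. These were Scnn1a, a subunit of the epithelial sodium channel (−2.21, edgeR adjusted p 0.0382), and Hsd11b2, the enzyme that inactivates glucocorticoids in these cells (0.59, 0.0459). Each was called in 2 of the 8 fits without a single library. Scnn1b and Scnn1g, the other subunits, had values of −0.31 and −0.43 and were not called (edgeR adjusted p 0.435 and 0.297). Of 8 intercalated cell markers 1 was called, the proton pump subunit Atp6v0a4 (−2.33, edgeR adjusted p 0.0298), with a median of −1.65.

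Principal cell markers followed the same library pattern as Aqp2 over a smaller range. Relative to the control mean their mean log2 CPM was −0.78, −1.19, 0.10 and −0.85 in knockouts 1 to 4. For Aqp2 the same quantity was −3.09, −4.10, 0.40 and −2.57. Proximal tubule markers were at −3.06, −4.58, −1.87 and −2.78, so knockout replicate 3 was below every control there, the lowest of which was at −1.15.

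Calls were no more frequent among genes that carry the vasopressin signal than over all genes tested (8.27% lower, 6.61% higher). Of 16 genes 15 were tested and 1 was called, Prkar2a, a regulatory subunit of protein kinase A, which went from 67.1 ± 5.84 to 55.9 ± 0.483 CPM (SD, n = 4 each; log2 fold change −0.26, SE 0.07, edgeR adjusted p 0.0388). The Prkar2a call held in 1 of the 8 fits without a single library (highest edgeR adjusted p 0.114). The median of the list was −0.02. Gnas, the G protein subunit that couples the receptor to cyclic AMP, had −0.05 (SE 0.07, edgeR adjusted p 0.597). Adcy6, the main adenylyl cyclase of the collecting duct, had −0.02 (SE 0.07, adjusted p 0.866), and Creb1, the factor that binds the cyclic AMP response element, had 0.28 (SE 0.09, adjusted p 0.0607). Avpr1a, another vasopressin receptor gene, was at 5.53 to 11.5 CPM in controls and 6.08 to 9.84 CPM in knockouts. Avpr1b had 0 counts in all 8 libraries.

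Of 16 genes that move Aqp2 vesicles 3 were called, all lower, against 8.27% of all genes tested. The median was −0.18. Ezr, the gene of ezrin, which links membranes to actin, changed by −0.69 (edgeR adjusted p 0.0345), the recycling GTPase gene Rab11a by −0.41 (0.0428) and the syntaxin gene Stx3 by −0.39 (0.0132). Of the 8 fits without a single library, Stx3 was called in 7, and Ezr and Rab11a in 2 each. The vesicle protein gene Vamp2, at 0.21, was not called (edgeR adjusted p 0.0768). Among 11 transcription factor genes linked to Aqp2 or to collecting duct identity 1 was called, against 6.61% of all genes tested called higher. This was Gata3, higher in the knockout (0.56, SE 0.14, edgeR adjusted p 0.0364). The Gata3 call held in 1 of the 8 fits without a single library (highest edgeR adjusted p 0.107). With the covariate for adrenal transcripts 0 genes of this list were called, Gata3 included, where 554 of 18485 genes were called higher. Elf3 and Elf5, ETS factors of the collecting duct, had −0.56 and −0.55 and were not called (edgeR adjusted p 0.174 and 0.383). Elf5 was higher in knockout replicate 3 than in any control and at 7.38 to 13.0 CPM in the other knockouts.

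Osmolyte genes let cells of the medulla withstand high salt. Of 6 such genes 3 were called lower, against 8.27% of all genes tested, and 0 were called higher. Values were below 0 for 5 of the 6, and the median was −1.14. Slc6a12, the betaine transporter, had 8.85, 5.24, 8.31 and 9.41 CPM in controls and 1.06, 0.201, 1.42 and 0.36 CPM in knockouts. All 4 knockouts, replicate 3 included, lay below all controls (log2 fold change −3.35, SE 0.50, edgeR adjusted p 0.0110), and the call held whichever of the 8 libraries was left out. Akr1b3, aldose reductase, which makes sorbitol, changed by −1.18 (edgeR adjusted p 0.0332), and Slc5a3, the inositol transporter, by −1.10 (0.0342). Nfat5, the tonicity factor that drives these genes, had 0.24 and was not called (edgeR adjusted p 0.216), with its highest value, 355 CPM, in knockout replicate 3.

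Transcripts of 12 genes of salt and urea transport along the loop and distal nephron were counted as well. Of these 12 genes 9 were called lower, against 8.27% of all genes tested. All 12 values were negative, and the median was −2.43. Slc12a3, the sodium chloride cotransporter of the distal convoluted tubule, changed by −2.80 (edgeR adjusted p 0.0190), and Umod, uromodulin, by −5.52 (0.0219). Slc14a2, the urea transporter of collecting duct and thin limb, had −1.56 (SE 0.50) and was not called (edgeR adjusted p 0.0650), with 16.1 CPM in knockout replicate 3 against 3.72 to 4.53 CPM in the other knockouts and 12.9 to 31.1 CPM in controls. Slc12a1, the cotransporter of the thick ascending limb, had −2.42 (SE 1.03, edgeR adjusted p 0.131).

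**Figure D4:**
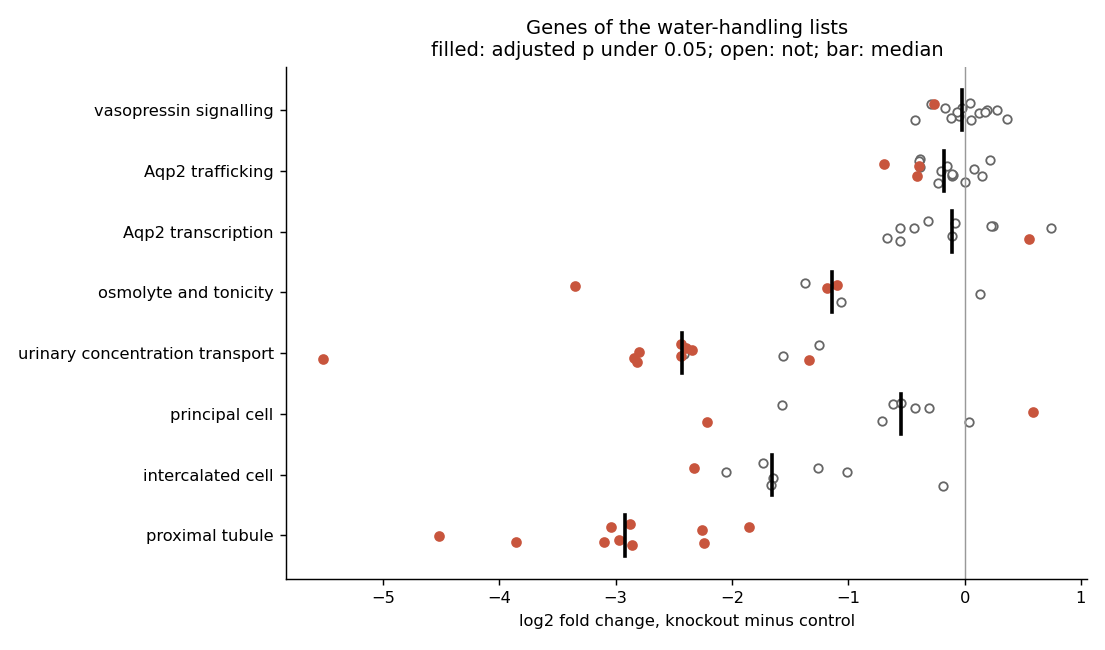
Log2 fold change (horizontal axis, edgeR, all 8 libraries) of each tested gene in 8 lists related to water handling; filled points have an adjusted p under 0.05 and the bar is the list's median. Medians of the signalling, trafficking and transcription lists lie between −0.18 and −0.02, and those of the urinary concentration and proximal tubule lists at −2.43 and −2.92.

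Markers of other cells that can hold aquaporins were counted in the same libraries, where 8.27% of all genes tested were called lower and 6.61% higher. Of 8 endothelial markers 1 was called lower, Emcn (−0.77, edgeR adjusted p 0.0382), with a median of −0.48 and summed levels of 553 to 846 CPM in controls and 388 to 644 CPM in knockouts. Red cells and small vessels contain Aqp1. Of 6 red blood cell markers 0 were called (the smallest edgeR adjusted p was 0.192, Hba-a2), with sums of 397 to 818.5 CPM and 455.5 to 1396 CPM. Of 8 adrenal markers 7 were tested and 0 called, with log2 fold changes from 2.08 to 4.36 (Dbh had the lowest edgeR adjusted p, 0.0715). Krt5 had the lowest edgeR adjusted p of the urothelial markers (0.0605). Its log2 fold change of 1.12 was positive, whereas those of the other 4 urothelial markers were negative (list median −0.75). Of 6 ureteric bud and progenitor genes Ret, the receptor of the ureteric bud tip, was called higher (0.82, edgeR adjusted p 0.0437) and Cited1 lower (−1.64, 0.0225). The 4 Y-linked genes were not called. The part of these cells in the changes of the aquaporins was not tested.

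Of the 35 genes called over all lists, 32 lower and 3 higher, 2 stayed called whichever library was left out, Slc6a12 and Pck1, and all 35 kept their sign in those 8 fits. With the covariate for adrenal transcripts 11 list genes were called lower and 0 higher, so the higher calls of Gata3, Hsd11b2 and Ret were lost. Over all 18485 genes 613 were then called lower and 554 higher. Of the list genes, 129 of which were tested with all libraries, 6, 54, 4 and 6 were called lower without control replicates 1 to 4. Over all genes the shares called lower were 1.28%, 19%, 0.928% and 1.83%. Without knockout replicates 1 to 4 the number of list genes was 3, 10, 50 and 2, against 1.12%, 1.47%, 9.30% and 0.23% of all genes. The rest of the aquaporin family, Mip, Aqp9 and Aqp12, gave 3, 12 and 0 counts over the 4 controls and 16, 16 and 3 over the 4 knockouts, and none passed the filter. Of the 16 knockout counts of Mip, 12 came from replicate 3.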

How the data were processed

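The deposited values are raw read counts for each gene, listed with gene coordinates and lengths, per the file headers. Trimmomatic 0.36, STAR 2.5.2b, featureCounts of Subread 1.5.2, DESeq2 and GRCm38 are named in the submitters' processing notes, with no settings. The table of the whole series equalled the tables per library in every value (0 differences). Symbols came from GENCODE M21 (49056 of 49315 IDs matched), and coordinates are those deposited, counted from 1. Every ID names a gene.

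Counts were scaled by TMM, filtered with filterByExpr (18485 genes kept) and tested with edgeR 4.0.16 in R 4.3.3, 4 controls against 4 knockouts, without covariates. Standard errors come from the fold change and F statistic. The test was checked on simulated counts. Log2 CPM used a prior count of 2. Precision at low counts is set by counting, and exact intervals cover counting error only. One count was worth 0.0350 to 0.0512 CPM of the raw library size.

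Members and the 17 lists were chosen with earlier results of these data known. Named genes are the members, Kdm1a, up to 3 called genes per list (or the one with the smallest adjusted p), and the 3 genes most correlated with Aqp1, Aqp2 and Aqp3; other list genes named with values were chosen after their values were seen, and 1 gene that the rule names is not reported here. Avpr2 was not tested and got no such genes. Alternatives were DESeq2 size factors, DESeq2 1.42.0, limma-voom (limma 3.58.1) with sample weights, other filters, a replicate block, covariates for Y-linked and adrenal transcripts, and libraries left out. Promoter windows are from RefSeq, with the Aqp4 window not used here.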

Additional observations from a re-analysis of the deposited data

Results flagged for a closer look

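In 4 genes 1 of the 4 knockout libraries stood apart from the other 3, by a gap that took up more of the group's range than Dixon's 95% critical value for 4 samples allows. In each case it was knockout replicate 3, at 125 CPM of Aqp1, 508 CPM of Aqp2, 36.5 CPM of Aqp4 and 2.04 CPM of Aqp6. The gap was 0.868, 0.913, 0.895 and 0.939 of the range. Chance flags about 1 in 20 groups, and these genes run together across libraries, so they are not 4 separate signs. In the same library principal cell markers and Foxi1 were also at control level, whereas proximal tubule markers and Slc6a12 were below every control.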

How the results depend on the processing

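The number of aquaporins called lower was 2 of 8 with all libraries, where 1529 of 18485 genes were called lower. It was 4 with DESeq2 (2509 of 18458 genes), 7 with limma-voom (4241 of 18485) and 5 with the replicate block (1748 of 18485). With the adrenal covariate it was 1 (613 of 18485), and without control replicate 2 and knockout replicate 3 it was 7 (4112 of 18513). With single libraries left out it was 0 to 6, where 43 to 3598 genes were called lower. In every alternative 0 were called higher. The genes called over the whole table, 2751, became 4506 with DESeq2, 8302 with limma-voom, 1167 with the adrenal covariate, 7903 without both libraries and 153 to 7084 with single libraries left out. The list genes called lower, 32, became 65 with limma-voom, 21 with the Y-linked covariate, 11 with the adrenal covariate, 70 without both libraries, 19 in the libraries with Y-linked transcripts and 2 to 54 with single libraries left out. Over all genes 1039 of 18485 were called lower with the Y-linked covariate, and 1486 of 18944 in the libraries with Y-linked transcripts. The log2 fold change of Kdm1a was −0.28 in the libraries with Y-linked transcripts (edgeR adjusted p 0.0562) and −0.29 to −0.24 with single libraries left out, with the call lost in 5 of these 8. Aqp6 relative to its markers ran from −0.42 to 0.13 with single libraries left out. Of 9 genes set against markers, 8 aquaporins and Avpr2, 0 passed in any setting. With a library left out the smallest exact permutation p is 0.0571, and with 2 left out 0.100, so those settings could not pass. With all libraries a pass required most of the 9 to reach the smallest exact permutation p. All 8 aquaporins kept the sign of their fold change in every alternative. Same-numbered libraries showed no steady pairing (r of −0.11, 0.33, 0.23 and −0.06 for replicates 1 to 4), and the labels give none. With the block the 5 genes called included Aqp2 (−2.36, edgeR adjusted p 0.0143), Aqp3 (−0.90, 0.0301) and Aqp4 (−1.60, 0.0251). These principal cell channels were not called by edgeR with all libraries and no covariate. The cause of these shifts was not tested. Aqp8 and Avpr2 are limited by depth.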
